A study of Mus musculus with 9 samples.

Results

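The C group and the TKO cells were compared at single CpG positions, to see how much methylation remained in C and where it lay. The members are the cytosines of CpGs, each strand counted as its own position, that were read at least 10 times in both tables on the nuclear chromosomes. They numbered 1285564 of the 1813392 nuclear positions found in any of the tables used. The study used mouse J1 embryonic stem cells at passages 7 to 10, and its 9 samples fall into 5 groups. C (2 samples) has no construct in its labels, which do not say what the letter stands for. WT, R and WWD (2 samples each) are Dnmt TKO cells that carry a wild-type Dnmt3a2 construct or a mutant one so labelled, and TKO (1 sample) is the Dnmt TKO line without a recorded construct. The source label of every sample, C included, gives Dnmt TKO cells, so all 5 groups share that background. The labels name 1 table for both samples of C, so it was taken as their pool, and the spread between replicates is unknown. A test here compares the reads of 2 tables and not 2 conditions.

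DNA methyltransferases add methyl groups to cytosine, in mammals mostly at CpG. Dnmt3a and Dnmt3b set new methylation, and Dnmt1 copies it onto the new strand after replication. Dnmt TKO cells lack all of these enzymes, so little methylation is known to be left in them. Dnmt3a2 is a shorter form of Dnmt3a that is abundant in embryonic stem cells. Bisulfite sequencing reads a cytosine as methylated when it resists conversion, so a cytosine that escaped conversion is counted too.

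C held 145831662 read calls and TKO held 133814232, with a median coverage of 66 reads in C and 87 in TKO. At the joined positions the medians were 92 reads in C and 88 in TKO. Mitochondrial CpGs, a check on conversion, averaged 0.057% in C and 0.0862% in TKO over 220 positions. Weighted by reads they came to 0.344% in C (Wilson 95% interval 0.324 to 0.365) and 0.594% in TKO (0.558 to 0.632). The main set below holds the 957786 joined positions (74.5%) where the TKO coverage, divided by its median, was at least 0.5 times the C coverage, divided by its own. No annotation of the mm9 build was used here, so positions are given by mm9 coordinate without a gene, and no sequence of the build was at hand to print.

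C was slightly more methylated than TKO in the main set, and both were well under 1%. Mean methylation was 0.273% in C and 0.214% in TKO, a difference of 0.0586 points with a counting error of 0.00404 points (the reach of the 95% interval to each side, as for every counting error below). These errors treat positions as independent, although neighbouring CpGs can lie on the same reads. They also run wide at such low levels, because a fraction of a read was added to each methylated count. The difference was above 0 on all 19 autosomes, from 0.0465 points on chromosome 2 to 0.0682 points on chromosome 3. Weighted by reads, the main set held 0.260% in C and 0.172% in TKO, both under the read-weighted mitochondrial levels of 0.344% and 0.594%. Averaged over positions, both tables lay above their mitochondrial means of 0.057% and 0.0862%. The part of incomplete conversion in these levels was not tested. In WT, R and WWD the main-set positions averaged 13.6%, 13.9% and 3.90%. Of the 864341 main-set positions with at least 30 reads in both tables, 83.2% had no methylated read in C and 85.3% had none in TKO.

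The sign of this difference depended on read depth. Without the depth condition C averaged 0.335% and TKO 0.518%, a difference of -0.184 points, with C lower on all 19 autosomes. The 327778 positions with reduced TKO depth had 0.515% in C and 1.41% in TKO, at median coverages of 53 and 15 reads. Where the scaled TKO to C depth was under 0.25, C had 0.633% and TKO 1.80%. At ratios of 0.5 to 0.75, inside the main set, C had 0.323% and TKO 0.430%. At 1 to 1.5, the class with most positions, C had 0.259% and TKO 0.168%. TKO methylation therefore varied far more across these ratio classes than C methylation did, and C exceeded TKO in each class from 0.75 upwards. The lowest class had median coverages of 60 reads in C and 12 in TKO. The classes therefore do not compare how the 2 tables vary with their own depth. Whether depth itself moved the measured level was not tested.

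**Figure D1:**
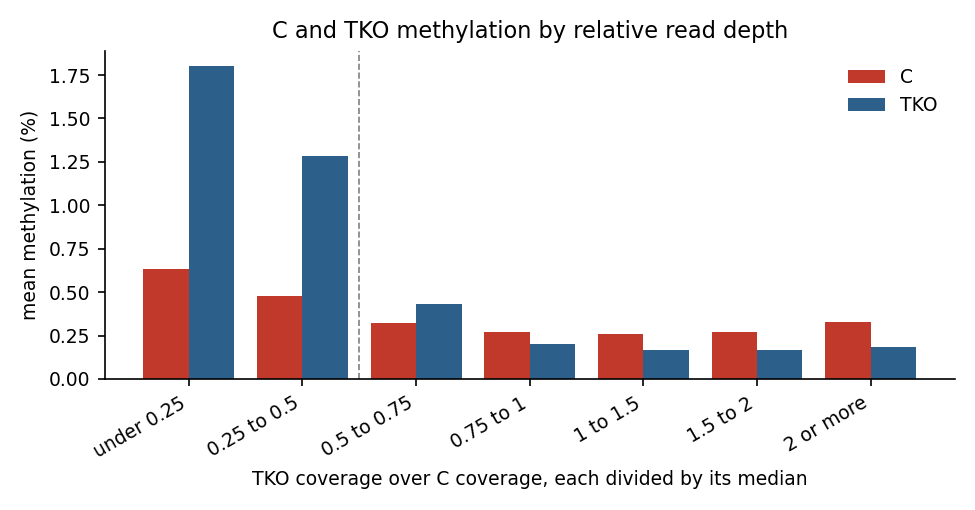
Mean methylation (%) in C and TKO in classes of the TKO to C coverage ratio, each coverage divided by its median. The dashed line at 0.5 marks the lower limit of the main set. TKO reached 1.80% in the lowest class and 0.168% at ratios of 1 to 1.5, while C held 0.633% and 0.259% there.

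In the main set, C exceeded TKO at positions that were methylated in the WT table, and did not over those at 0% in it. WT and R are separate tables, so these classes do not use the compared values. At the 403585 positions with 0% in WT, C had 0.133% and TKO 0.140%, a difference of -0.00706 points with a counting error of 0.00639. With over 0 to 5% in WT, C had 0.230% and TKO 0.217%. From there the gap widened: with over 5 to 20% in WT, C had 0.364% and TKO 0.251%.

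At positions with over 20 to 40% in WT, C had 0.413% and TKO 0.272%. In the next class, up to 60% in WT, C had 0.470% and TKO 0.305%. In the class up to 80%, C had 0.601% and TKO 0.409%. In each of these classes, from 5% to 80% in WT, C was higher on 19 of 19 autosomes. Above 80% in WT, 3295 positions averaged 1.004% in C and 0.679% in TKO, and C was higher on 17 of the 19 autosomes.

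TKO methylation rose along the same classes, so the ratio of C to TKO changed less than the difference. It was 0.949 where WT had 0% and 1.06 at over 0 to 5%, and it then stayed between 1.45 and 1.54 in the 5 higher classes. Ranked by R instead of WT, the difference was -0.00483 points where R had 0%, 0.112 points at over 5 to 20% and 0.172 points at over 40 to 60%. Above 80% in R the difference was 0.0859 points, within its counting error of 0.0945. That error runs wide at such low levels, so this class was left undecided. Without the depth condition the order turned round, and C was lower than TKO in each WT class.

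**Figure D2:**
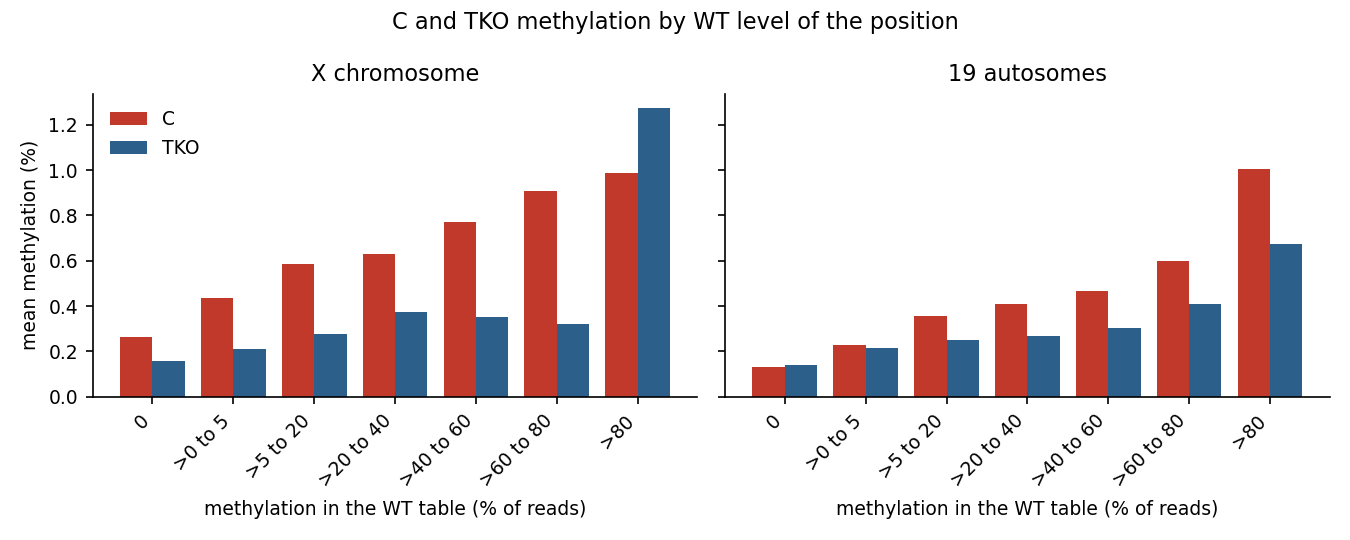
Mean methylation (%) in C and TKO by the methylation of the position in the WT table, for the X chromosome (left) and the 19 autosomes (right), main set. On X, C stood above TKO in each class up to 80% in WT, starting at 0.263% against 0.158% where WT had 0%. Above 80%, with 39 X positions, C had 0.986% and TKO 1.27%. On the autosomes C and TKO were close up to 5% in WT and separated above it.

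The same gap followed CpG density, counted as joined positions per tile of 1 kb. With fewer than 5 positions per tile, C had 0.452% and TKO 0.323%. With 5 to 9, C had 0.378% and TKO 0.245%, and with 10 to 19, C had 0.267% and TKO 0.198%. With 20 to 39, both had 0.162%, and with 40 or more, C had 0.139% and TKO 0.148%. Averaged over all WT levels, the difference was thus found in tiles of up to 19 positions. The sparsest tiles are also those where WT is most methylated (29.2% with fewer than 5 positions, 0.473% with 40 or more).

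Within autosomal tiles of fewer than 5 positions the WT level made a smaller difference than in the denser classes. There C minus TKO was 0.0462 points where WT had 0% (counting error 0.0539), 0.119 points at over 5 to 20% and 0.137 points at over 40 to 60%. In tiles of 5 to 9 positions it was -0.000607 points where WT had 0%, 0.123 points at over 5 to 20% and 0.253 points at over 60 to 80%. In tiles of 10 to 19 it was -0.0233 points where WT had 0% and 0.255 points at over 60 to 80%. In tiles of 20 to 39 it was -0.0106 points where WT had 0% and 0.255 points at over 40 to 60% (counting error 0.101). At over 60 to 80% it was 0.0863 points there (0.230). In tiles of 40 or more it was -0.0107 points where WT had 0% and 0.532 points at over 40 to 60% (0.428).

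The X chromosome stood apart from every autosome in C. Over 22500 main-set positions, X averaged 0.450% in C and 0.235% in TKO, a difference of 0.215 points with a counting error of 0.0394. The 934996 autosomal positions averaged 0.269% in C and 0.214% in TKO, a difference of 0.0549 points. The X was singled out after its values were seen. Its difference was more than 3 times the highest autosomal one, the 0.0682 points of chromosome 3. With depth unmatched, TKO itself had nearly the same level on X as on the autosomes.

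**Figure D3:**
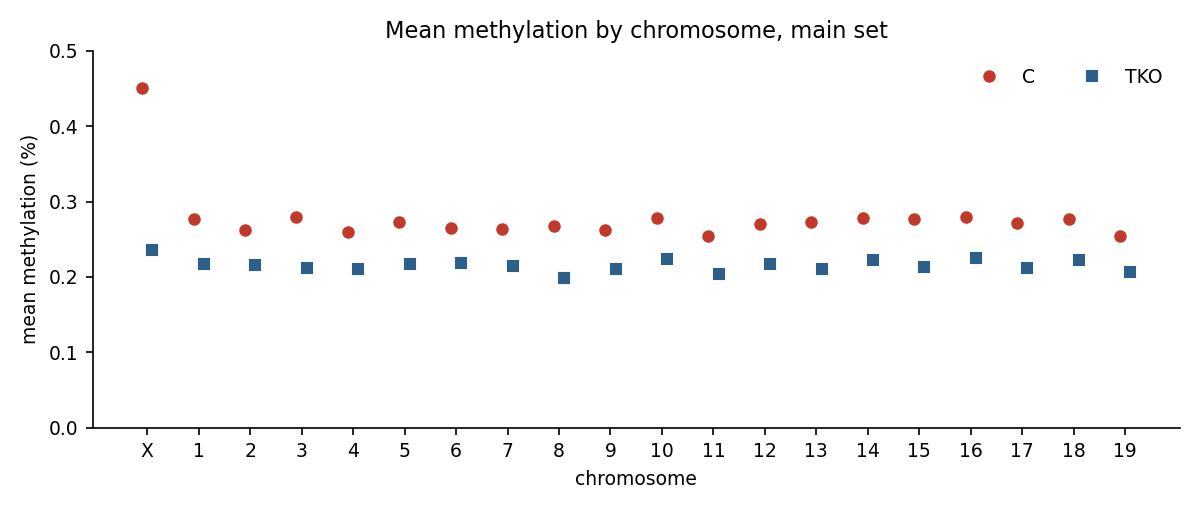
Mean methylation (%) of main-set positions in C and TKO on X and on each of the 19 autosomes. C lies at 0.450% on X and between 0.254% and 0.280% on the autosomes, while TKO lies at 0.235% on X and between 0.199% and 0.225% on the autosomes.

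WT, R and WWD did not show the X above the autosomes. Relative to autosomal positions with the same tile density, the X level was 1.44 times as high in C and 0.993 times in TKO. In WT it was 0.633 times, in R 0.689 times and in WWD 0.642 times the density-matched autosomal level. C was thus the one table of these 5 with more methylation on X than on such autosomal positions. Depth was not matched in these ratios.

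The X difference was spread along the chromosome. In windows of 10 Mb, C minus TKO was above 0 in 17 of 17 X windows, with a lowest value of 0.104, a median of 0.226 and a highest of 0.578 points. The 257 autosomal windows had a lowest value of -0.0621, a median of 0.0527 and a highest of 0.222 points. No autosomal window reached the X median. Leaving out each X window in turn kept the X difference between 0.207 and 0.223 points.

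It was also found where WT had no methylation, and in tiles of up to 19 positions. At the 9953 X positions with 0% in WT, C had 0.263% and TKO 0.158%, where the autosomes had 0.129% in C and 0.139% in TKO. In X tiles of 10 to 19 positions C had 0.394% and TKO 0.152%, against 0.263% and 0.200% on the autosomes. In X tiles of 20 to 39 C had 0.207% and TKO 0.171%, a difference of 0.0366 points with a counting error of 0.0897. In X tiles of 40 or more C had 0.257% and TKO 0.149%, and the difference of 0.1081 points barely exceeded its counting error of 0.1075. These counting errors run wide at such low levels. By them the X difference was undecided in tiles of 20 to 39 and borderline in the densest class, with C above TKO in both.

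X positions were shallower than autosomal ones, with medians of 57 reads in C and 65 in TKO on X, against 118 and 130 on the autosomes. Positions of matched depth were therefore compared. With 50 to 79 reads in both tables, X had 0.402% in C and 0.163% in TKO, and the autosomes 0.287% in C and 0.209% in TKO. In that band 13.6% of X positions had a methylated read in C and 7.17% in TKO, against 11.05% and 8.89% on the autosomes. With 80 to under 120 reads, X had 0.384% in C and 0.148% in TKO, and the autosomes 0.243% in C and 0.164% in TKO. With 10 to 29 reads, X had 0.535% in C and 0.554% in TKO, a difference of -0.0188 points with a counting error of 0.230, so no X difference was detectable at that depth. The autosomes there had 0.334% in C and 0.433% in TKO, a difference of -0.0988 points with a counting error of 0.0614. With 30 to 49 reads the autosomal difference was 0.0287 points (counting error 0.0359), and that of X 0.3015 points (0.125). TKO in that band had 0.185% on X and 0.287% on the autosomes. In the bands from 30 reads the wider gap on X thus held both a higher C and a lower TKO. On the autosomes C thus exceeded TKO beyond counting error in the bands from 50 reads. The band of 30 to 49 reads was left undecided, since these errors run wide at such low levels.

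Without the depth condition the X difference was still 0.176 points, while that of all positions turned negative. The Y chromosome had 290 main-set positions, with 0.167% in C and 0.177% in TKO, and its counting error of 0.397 points allows no statement.

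Tested site by site, few positions passed the test. Of 957786 main-set positions, 4 were higher in C (0.000418%) and 2 were lower (0.000209%) by Fisher's exact test with Benjamini-Hochberg adjustment over all joined positions (adjusted p under 0.01 and at least 5 points). At an unadjusted p under 0.05, 8888 positions were higher and 2106 lower in C. On X, 0 positions were called higher, where 195 were higher at an unadjusted p under 0.05, and 1 was called lower (0.00444%). On the autosomes 4 were higher (0.000428%) and 1 was lower (0.000107%). Over all joined positions the same 4 were higher (0.000311%) and 33 lower (0.00257%), of which 31 had reduced TKO depth (0.00946% of those positions). A position that did not pass is not shown to be alike in C and TKO, since most positions had no methylated read or few.

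The 6 called positions were few enough to give in full. Of the 4 higher ones, 3 lay on the reverse strand of chromosome 17 within 2 neighbouring tiles. At 39982730, C had 29 methylated of 155 reads (18.7%, Wilson 95% interval 13.4 to 25.6) and TKO 1 of 275 (0.36%), and the adjusted p by Fisher's exact test was 2.53e-08. At 39982728, C had 25 of 146 reads (17.1%) and TKO 0 of 259, which allows up to 1.16%. At 39981560, C had 29 of 277 reads (10.5%) and TKO 5 of 552 (0.91%). WT held 31.7%, 9.12% and 39.4% at these positions.

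Coverage was very uneven in these tiles. In the tile from 39982001 to 39983000, C coverage reached from 11 to 16228 reads over 121 positions, which averaged 1.37% in C and 0.0838% in TKO. In it 12 positions had 5% or more in C and 0 had so in TKO. The part of this coverage in the result was not tested.

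The fourth higher position was on chromosome 3 at 152637990, reverse strand. C had 24 methylated of 212 reads (11.3%, Wilson 95% interval 7.73 to 16.3) and TKO 0 of 300, which allows up to 1%. WT held 86.1%, R 91.4% and WWD 82.1% there, so it was heavily methylated in all 3 tables with a construct. The 2 lower positions were high in TKO itself. On the X chromosome at 107612540, forward strand, C had 4 of 21 reads (19.05%) and TKO 47 of 49 (95.9%), with 22.2% in WT and 28.6% in R. On chromosome 2 at 126437446, forward strand, C had 5 of 154 reads (3.25%) and TKO 96 of 318 (30.2%), with 20.1% in WT.

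Residual positions are main-set positions with at least 30 reads in both tables, 5% or more in C and 0% in TKO. There were 2997 (0.347% of 864341), and they are chosen by the C and TKO levels, so those levels are a description. The same rule with the tables exchanged, 5% or more in TKO and 0% in C, found 1646 (0.19%), which are called swapped positions. The residual share was above the swapped share on 19 of 19 autosomes, with 0.237% to 0.377% for residual and 0.148% to 0.233% for swapped positions. The counts came closer or turned with the threshold: at 10% or more there were 174 residual and 209 swapped positions.

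Both sets were shallower than the eligible positions, and at 30 reads 2 methylated reads reach the limit of 5%. Residual positions had medians of 69 reads in C and 66 in TKO, and swapped ones 61 in C and 39 in TKO, where all eligible positions had 123 in C and 138 in TKO. With at least 50 reads in both tables, 1838 were residual and 484 swapped. Where the smaller of the 2 unscaled coverages was at least 0.8 times the larger, 1493 were residual and 503 swapped. Residual positions thus outnumbered swapped ones more clearly at equal or higher depth.

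Most residual positions were weakly methylated. The median was 6.03% in C, with lower and upper quartiles of 5.41% and 7.25% and a highest value of 21.8%. The median number of methylated reads was 5, and 1463 of the 2997 had fewer than 5. Just inside the limit, at 5 to under 5.5%, were 872 positions with a WT mean of 29.96%. Just outside, at 4.5 to under 5%, were 1090 with a WT mean of 27.8%. The test above called 2 of the residual positions.

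Residual positions were on average more methylated in WT and R than all eligible positions. Their mean was 31.5% in WT, 33.0% in R and 10.7% in WWD, with medians of 28.9%, 30.1% and 3.90%. All eligible positions averaged 13.5% in WT, 13.7% in R and 3.67% in WWD, with medians of 1.32%, 1.43% and 0%. Above 20% in WT were 60.01% of residual and 27.0% of all eligible positions, and at 0% in WT were 10.2% and 41.3%. Swapped positions averaged 26.4% in WT (median 19.8%), below the residual ones, with 49.7% above 20% in WT and 20.7% at 0%. In WWD they averaged 14.3% (median 4.96%), above the residual ones.

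The share of residual positions rose with the WT level. It was 0.0861% where WT had 0%, 0.188% at over 0 to 5% and 0.498% at over 5 to 20%. The next classes, up to 40%, 60% and 80% in WT, had 0.585%, 0.787% and 1.24%, and positions above 80% had 2.44%. Swapped positions rose less, from 0.0953% in the lowest class to 0.927% in the highest. Where WT had 0% the order was turned, with 307 residual and 340 swapped positions.

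**Figure D4:**
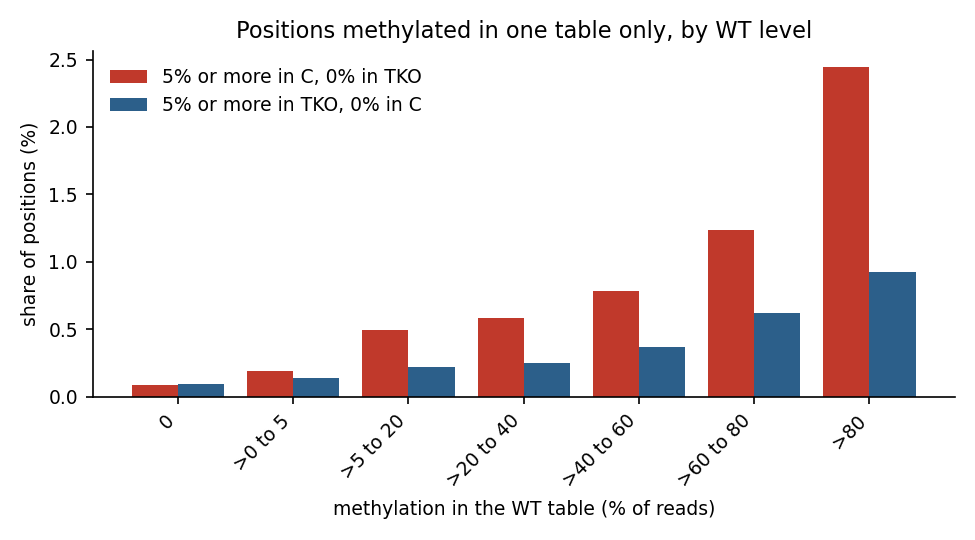
Share (%) of main-set positions with at least 30 reads in both tables that had 5% or more in C and 0% in TKO, or the reverse, by WT level. Shares were 0.0861% and 0.0953% where WT had 0%, and 2.44% and 0.927% above 80% in WT.

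Most residual positions lay in CpG-poor tiles, where WT is high, so densities were also matched, though depth was not. In tiles of fewer than 5 positions, 1515 residual positions averaged 35.6% in WT, against 28.9% for all eligible ones of that class. In tiles of 5 to 9, 796 averaged 37.0% against 26.5%, and in tiles of 10 to 19, 352 averaged 26.0% against 13.7%. In tiles of 40 or more, 166 averaged 1.97% against 0.471%. Residual positions had the higher WT mean in each class. The swapped ones of the sparsest class reached 37.05%, above the residual ones.

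X held an outsized part of the residual positions. On X 308 of 17722 eligible positions were residual (1.74%), against 2688 of 846427 on the autosomes (0.318%). Swapped positions were 50 on X (0.282%) and 1595 on the autosomes (0.188%). At 50 to 79 reads in both tables, 1.82% of X and 0.918% of autosomal positions were residual, and at 80 to under 120 reads 0.725% and 0.309%. The X share stayed above the autosomal one at matched depth.

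Residual positions on X were less methylated in WT than those on the autosomes. Their WT mean was 18.5% with a median of 11.3% on X, and 33.0% with a median of 31.3% on the autosomes. At 0% in WT were 18.8% of the residual X positions and 9.26% of the autosomal ones. All eligible positions averaged 11% in WT on X and 13.5% on the autosomes.

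A minority of the residual positions occurred in short runs on 1 strand. Another residual CpG lay within 100 bp of 714 of the 2997 (23.8%), and for 711 of these on the same strand. On the opposite strand 10 had one. Coverage of the strands was unequal: 2046 residual positions had a covered same-strand CpG within 50 bp, and 407 had the opposite strand of the same CpG. How far this coverage set the strand split was not tested. Of the 1646 swapped positions, 73 (4.43%) had another swapped CpG within 100 bp. By tile, residual positions fell into 2571 tiles, of which 2254 held 1 residual CpG, 317 held at least 2 and 83 held at least 3. Swapped positions fell into 1599 tiles, of which 33 held at least 2.

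The nearest CpG on the same strand, within 50 bp, was measured whether or not it was residual itself. For 2046 residual positions with such a neighbour it averaged 2.90% in C and 0.118% in TKO. For all eligible positions it averaged 0.199% in C and 0.122% in TKO. The neighbour had 5% or more in C for 675 of the 2046 (33.0%) and 0% for 966. For swapped positions the neighbour had 5% or more in TKO in 59 of 1077 cases (5.48%).

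Where residual position and neighbour were both at 5% or more, they mostly had the same number of methylated reads. The numbers were equal in 481 of the 675 cases (71.3%), though the tables do not link reads across positions. Swapped positions showed the same in TKO, with equal numbers in 54 of 59 cases (91.5%). The 675 residual positions averaged 33.6% in WT, and those whose neighbour had 0% averaged 26.2%. The 405 with a neighbour over 0 and under 5% averaged 37.3%, the highest of these classes. Of the 215 residual X positions with such a neighbour, 46.5% had it at 5% or more, with a WT mean of 15.35%. Of the 1831 autosomal ones 31.4% had it so, with a WT mean of 36.7%.

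The opposite strand of the same CpG mostly lacked the methylation. Of the 2997 residual positions, 407 had that cytosine in the main set, where C averaged 0.512% and TKO 0.441%. At 5% or more were 6 of the 407 in C (1.47%) and 9 in TKO (2.21%). For all eligible positions with both strands the other strand averaged 0.247% in C and 0.219% in TKO. Of those, 0.436% were at 5% or more in C and 0.568% in TKO. The opposite strand of residual positions was thus above this background in both tables, and not in C alone.

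Differences were also summed up by tile. Among 46911 tiles with at least 5 main-set positions, 411 (0.876%) were at least 2 points higher in C and 219 (0.467%) at least 2 points lower. On X 45 of 1179 tiles (3.82%) were higher and 13 (1.10%) lower, and on the autosomes 366 of 45716 (0.801%) were higher and 206 (0.451%) lower. The tiles higher in C averaged 32.5% in WT, those lower 26.3%, and all tiles 16.1%.

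The tile with the greatest rise covered 128400001 to 128401000 of chromosome 3, where 5 reverse-strand CpGs spanned 35 bp. C had 5 methylated reads at each of them, of 23 or 24 reads, or 20.8% to 21.7%. The Wilson 95% interval of the first was 9.25 to 40.5. TKO had 0 of 25 to 28 reads at each, which allows up to 12% at the shallowest. At under 30 reads none of these CpGs could count as residual. WT was uneven over them, from 0% at the first to 25% at the fourth, while C was flat.

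The second rise was on chromosome 15 from 46720001 to 46721000, with 5 reverse-strand CpGs over 44 bp. C had 3 methylated reads of 16 to 22 at 4 of them and 7 of 20 (35%) at the remaining one. That one was the CpG with the highest WT level, 94.8%, where the others held 39.4% to 69.4%. TKO had 0 methylated reads of 32 to 47 at each, and here too C coverage was under the 30 reads that residual positions need. The third rise was on the X chromosome from 22156001 to 22157000, where 5 of 6 forward-strand CpGs had 7 methylated reads of 68 to 71 in C. TKO had 0 to 2 of 89 to 100 there, and WT 6.86% to 44.3%.

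The tiles with most residual CpGs differed in form. In the X tile from 31800001 to 31801000, 6 of 8 positions were residual, 3 on each strand. C had 4 or 5 methylated reads of 64 to 66 at the 4 forward positions and 2 to 4 of 50 to 52 at the 4 reverse positions. TKO was at 0% in 7 of the 8 and at 1.56% in 1. WT held 0% to 9.09% over this tile, and C was at or above the WT level at all but 1 of its positions.

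On chromosome 15 from 76555001 to 76556000, all 6 residual CpGs lay among the last 7 of 31 positions. Each had 6 methylated reads of 67 to 70 in C, and the remaining one, the second in order, had 0 of 70. On chromosome 2 from 163851001 to 163852000, 5 of 6 reverse-strand CpGs had 5 of 90 reads methylated in C. The sixth had 9 of 90 in C and 3 of 153 in TKO. WT held 10.1% to 61.03% over that tile.

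**Figure D5:**
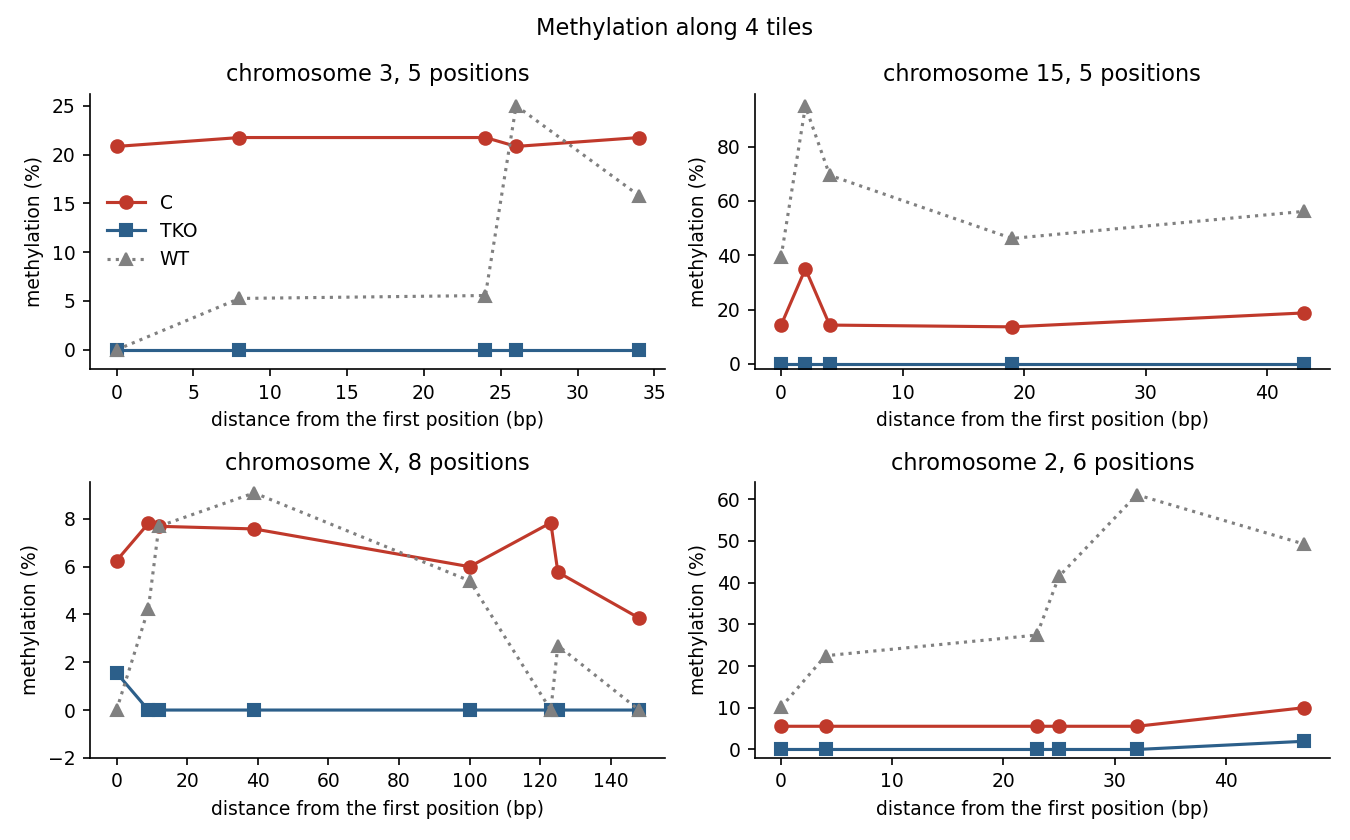
Methylation (%) in C, TKO and WT at each position of 4 tiles, against the distance (bp) from the first position. C is flat at 20.8% to 21.7% on chromosome 3 and at 5.56% at 5 of 6 positions on chromosome 2, where WT varies from 0% to 25% and from 10.1% to 61.03%, and TKO stays under 2% in all 4.

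The 3 named falls came from CpGs with 10 to 13 TKO reads, as the first 2 named rises came from CpGs with 16 to 24 C reads. Over all tiles lower in C the median of the mean coverage per tile was 77.5 reads in C and 79.6 in TKO. The largest fall, on chromosome 18 from 68870001 to 68871000, came from 3 reverse-strand CpGs with 0 of 15 reads methylated in C, which allows up to 20%, and 5 or 6 of 12 or 13 in TKO. Each of the other falls came from 1 CpG. One was in the chromosome 5 tile that starts at 120860001, and the other in the chromosome 19 tile that starts at 5447001. The chromosome 5 CpG had 0 of 12 reads in C and 7 of 10 in TKO, and the chromosome 19 CpG 0 of 19 in C and 6 of 10 in TKO. Summed over reads these 3 tiles held 0%, 0% and 0.277% in C and 4.65%, 0.93% and 2.22% in TKO.

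The 10 residual positions with the highest C level ranged from 17.05% to 21.8% in C and were not alike in WT. The highest was on X at 96331716, forward strand, with 12 of 55 reads in C (21.8%, Wilson 95% interval 12.95 to 34.4) and 0 of 68 in TKO, which allows up to 4.41%. WT had 0% there and R 2.78%. The second, on X at 156424082, reverse strand, had 11 of 53 reads in C (20.8%) and 0 of 53 in TKO, with 50% in WT and 71.05% in R.

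On chromosome 4 at 86284445, forward strand, C had 15 of 88 reads (17.05%) and TKO 0 of 44, with 73.5% in WT and 79.9% in R. On chromosome 13 at 117093486, reverse strand, C had 7 of 37 reads (18.9%) and TKO 0 of 36, with 0% in both WT and R. Of the 10, the position 39982728 of chromosome 17 passed the test above and the others did not, with adjusted p-values of 0.145 to 1 by Fisher's exact test. The highest sites thus joined positions that WT methylated strongly with positions at 0% in WT.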

How the data were processed

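MspI fragments of 150 to 250 and 250 to 400 bp were bisulfite sequenced, per the labels' protocols. Bismark and methylKit, without versions, and mm9 come from the submitters' processing notes. Per the file headers, each deposited table gives, by CpG position and strand, a read count (coverage) and the percent of them showing C. Of the 6 tables deposited, 5 were used, since no label names the other, and 8 columns of values were not used. Methylated reads are coverage times percent, rounded. Tables were joined on chromosome, base and strand, with python 3.11.15, pandas 2.3.3, scipy 1.17.1 and numba 0.67.0. Two-sided Fisher's exact tests ran over all joined positions and were tested on simulated data. Counting errors assume binomial counts that are independent between reads and between positions. A fraction of a read was added to each methylated count, which widens them at levels this low. CpGs that share reads are not independent, and the errors leave this out. PCR copies cannot be told apart, so all intervals, and zero-count limits (3 reads), cover counting error only. The labels do not say that samples were separate cultures. Named positions and tiles are the 5 largest called rises and falls, the 10 highest residual positions, the 3 tiles each with the largest rise, the largest fall and the most residual CpGs. Members, classes and lists were chosen with earlier results of these data known.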

Additional observations from a re-analysis of the deposited data

How the results depend on the processing

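The settings for X, for swapped positions and for equal depth (smaller coverage at least 0.8 times the larger) were chosen after seeing the data. Causes were not tested unless the setting itself tests fewer positions. C minus TKO was 0.0803 points with 30 reads in both, 0.0692 with 20, 0.0629 with an unscaled ratio, 0.0874 with summed reads, 0.085 at equal depth and -0.184 without the depth filter, where the X excess over autosomes was 0.367 points. Without the filter the contrast of over 40% against 0% in WT was -0.306 points (0.184 with it, 0.238 with 30 reads in C, TKO and WT), that of the sparsest against the densest tiles -0.101 (0.139 with it), and the opposite strand of residual positions -0.443 (0.0717 with it). By WT class it was -0.237, -0.0944, -0.125, -0.306, -0.59 and -0.909 from over 0 to 5% upwards, and by density -0.256, -0.161 and -0.156 in the 3 sparsest classes. With 30 reads in all 3 tables the class at 0% in WT was 0.00422. Called positions were 11 (7 higher, 4 lower) at an adjusted p under 0.05, 2 (0 higher) at 25 points, 1 lower with 30 reads, and 37 (33 lower) without the depth filter. Residual and swapped positions were 174 and 209 at 10%, 1838 and 484 with 50 reads, and 1493 and 503 at equal depth, and swapped ones 2841 with 20 reads. Residual means at 10% were 34.9% in WT, 35.9% in R and 12.4% in WWD. Tiles higher and lower in C were 27 and 25 with 10 or more positions, and 900 and 3022 without the depth filter. On X, C minus TKO was 0.176 to 0.253 points over all settings, within its main counting error, and the residual share 1.37% to 1.86%, except 0.169% at 10% (0.017% elsewhere). No paired analysis was possible because each group has 1 table, and replicates could not be left out for the same reason.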

Other observations

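At 139 main-set positions with at least 30 reads, both tables were at 5% or more, with means of 7.87% in C and 8.48% in TKO. These positions averaged 36.6% in WT, 41.7% in R and 24.4% in WWD, against 13.5%, 13.7% and 3.67% over all eligible positions. Outside the main set, at reduced TKO depth, 31 positions were called lower in C and 0 higher by Fisher's exact test, where 58 were higher and 9974 lower at an unadjusted p under 0.05.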
